A study of Mus musculus with 12 samples.

Results

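The insulin-like growth factor (IGF) family was examined in spinal motor neurons (SMNs) and posterior horn of the mouse. The family comprised the ligand genes Igf1 and Igf2, the receptor genes Igf1r and Igf2r, and the binding protein genes Igfbp2 to Igfbp7, taken by gene symbol. These 10 genes had 11 of the 238609 transcript clusters of the gene-level table, since Igfbp4 had 2, and 182 of the 1195555 probesets of the exon-level table. A transcript cluster is the set of probesets that the array assigns to a transcribed locus, and a row was used where the array annotation gave it exactly 1 symbol.

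IGF1 and IGF2 are secreted growth factors that act mainly through the receptor tyrosine kinase IGF1R, which signals through adaptor proteins, PI3 kinase and Akt. IGF2R, the cation-independent mannose 6-phosphate receptor, takes up IGF2 for degradation and carries lysosomal enzymes from the Golgi. The binding proteins hold IGFs outside the cell and are cleaved by proteases that release the ligand. In the spinal cord, IGF1 is known as a survival and sprouting factor for motor neurons.

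Both groups came from male mice aged 6 weeks, C57Bl/6 in the labels and C57BL/6J in the methods, for which neither the labels nor the methods give a treatment, mutant allele or transgene. The 3 SMN arrays, labelled anterior horn cells, held RNA of about 3000 cells with a diameter over 20 μm, taken by laser from frozen cervical cord sections 10 μm thick in 3 mice. The 3 posterior horn arrays, labelled posterior column, held RNA of about 20 dorsal horn areas from 3 mice, which were pieces of tissue with all their cell types. Nothing states that each replicate was 1 mouse, so the p-values measure only the spread between these arrays. RNA was amplified linearly and hybridized to Affymetrix mouse exon arrays, which carry probesets along the exons of a gene, and gene-level values were linear intensities with array medians of 32.9 to 35.2. Arrays correlated at 0.960 to 0.961 among SMN arrays, at 0.936 to 0.945 among posterior horn arrays and at 0.880 to 0.888 between groups.

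The SMN label was checked first. Chat, the acetylcholine-synthesizing enzyme, averaged 1784 ± 50.6 in SMN arrays and 12.5 ± 1.31 in posterior horn arrays (SD, n = 3 each). Slc18a3, the vesicular acetylcholine transporter, had 3933, 4189 and 3905 in SMN arrays, against 79.2, 10.6 and 30.3 in posterior horn arrays. Isl1, a motor neuron transcription factor, had 594, 365 and 344 in SMN arrays, against 17.6, 20.4 and 8.6 in posterior horn arrays. Most of these posterior horn values lay under the array median, so no fold is given. Of 6 measured SMN markers, 5 were higher in SMN arrays. The exception was Mnx1, another motor neuron transcription factor, which went against the label with 135, 172 and 177 in SMN arrays, against 213, 237 and 237 in posterior horn arrays. All SMN values of Mnx1 were lower, and it did not pass (log2 fold change -0.51, adjusted p = 0.0709). The paper's own microarray ratios place Mnx1 with Chat and Isl1 among genes specific to SMNs, the opposite direction. Only the brightest Mnx1 row was read here, and the source of this difference was not tested. Markers of other cells mostly differed in the opposite direction. In SMN arrays, 6 of 7 microglial, 6 of 7 endothelial, 8 of 8 oligodendrocyte, 6 of 7 astrocyte and 4 of 7 mural markers were lower, and 1 astrocyte marker was higher. Also lower were 4 of 7 inhibitory and 2 of 6 excitatory dorsal horn neuron markers and 2 of 9 meningeal and perivascular fibroblast markers. The summed endothelial markers lay between 716 and 864 in SMN arrays and between 2456 and 3356 in posterior horn arrays. The summed microglial markers lay between 1614 and 1672 in SMN arrays and between 4103 and 4394 in posterior horn arrays. The summed astrocyte markers lay between 6391 and 6849 in SMN arrays and between 12876 and 13762 in posterior horn arrays. The summed mural markers lay between 2048 and 2154 in SMN arrays and between 5061 and 5727 in posterior horn arrays. No marker was at 0 in either group, but neither was any gene-level row, so this cannot show that a cell type was present. In tissue RNA of this kind, fewer cells of a type and less RNA per cell cannot be told apart, and the part of these cells in the differences described next was not tested.

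Of the 11 transcript clusters, 7 passed limma at an adjusted p under 0.05, against 26.4% of the 24343 clusters with 1 symbol. Igf2r and 1 of the Igfbp4 clusters were higher in SMNs (13.8% of all clusters were called higher), whereas Igf1, Igf1r, Igfbp3, Igfbp5 and Igfbp7 were lower (12.6% of all were called lower). The remaining clusters, of Igf2, Igfbp2, Igfbp6 and the other Igfbp4 cluster, did not pass. The median log2 fold change, SMN over posterior horn, was -0.75 over the 11 clusters and 0.02 over all clusters tested. The groups did not overlap for 10 of the 11 clusters, as for 45.6% of all clusters. An exact two-sided permutation test of 3 against 3 arrays cannot give a p below 0.1, and 10 of the clusters had that value. With the spread and the adjustment taken over all 238609 rows of the table, Igfbp5 was the only member that passed.

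**Figure D1:**
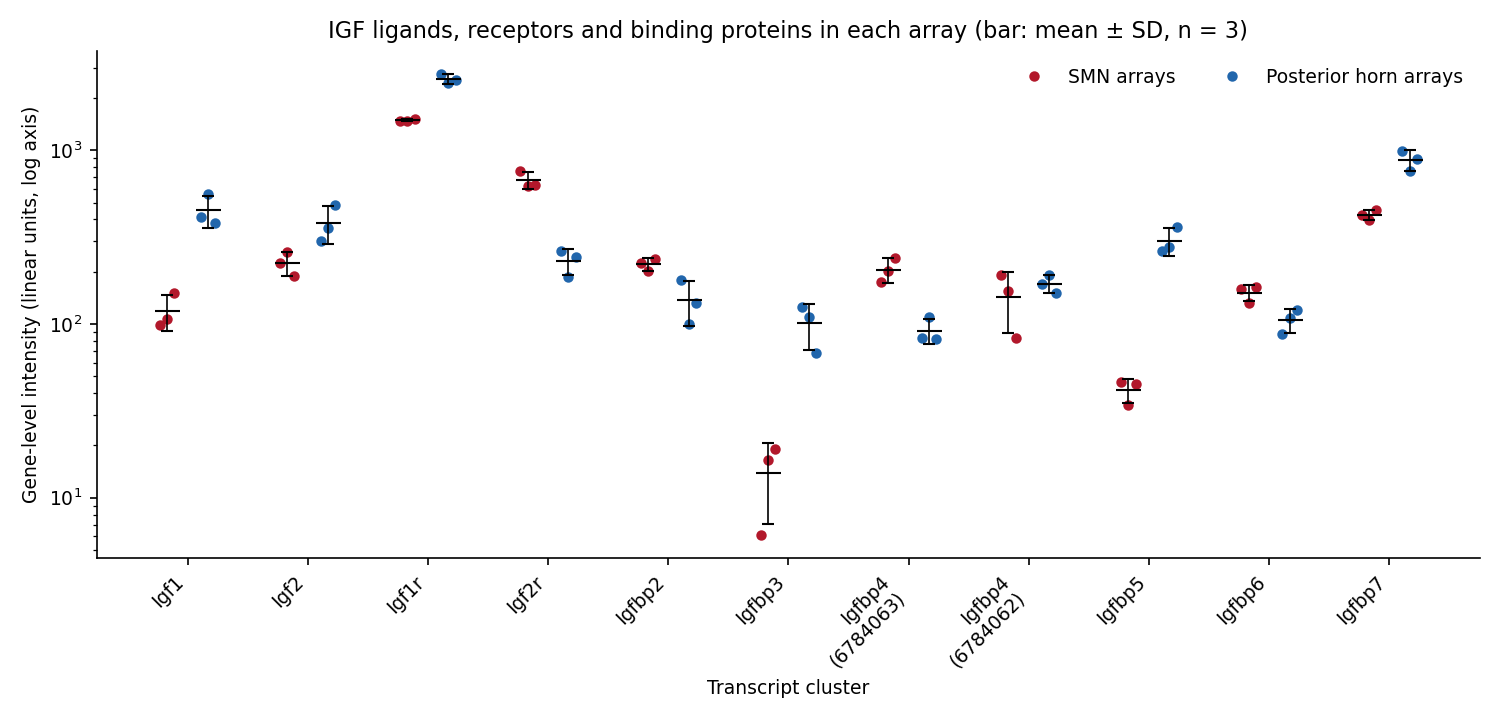
Gene-level intensity (linear units on a log axis) of each transcript cluster in the 3 SMN arrays and the 3 posterior horn arrays, with mean ± SD. The points of Igfbp3 and Igfbp5 lie lower in SMN arrays with no overlap, those of Igf2r lie higher, and only the Igfbp4 cluster 6784062 overlaps.

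Among the genes that passed, Igfbp5 and Igfbp3 had the lowest log2 fold changes and Igf2r the highest. The order of Igfbp3 (-2.86) and Igfbp5 (-2.82) turned with 16 added before the log2 (-1.96 and -2.45) and with a floor of 16 (-2.51 and -2.85). The promoter windows of these 3 genes, 250 bases before to 50 bases after the annotated start in RefSeq on GRCm38.p6, are shown so that the pair of genes that were lower can be read against the gene that was higher. All 3 genes lie on the minus strand and the sequences run 5′ to 3′ on it, with the letters of a searched motif in capitals. Igf2r is at chr17:12769657-12769956, Igfbp3 at chr11:7213874-7214173 and Igfbp5 at chr1:72874816-72875115.
Igf2r: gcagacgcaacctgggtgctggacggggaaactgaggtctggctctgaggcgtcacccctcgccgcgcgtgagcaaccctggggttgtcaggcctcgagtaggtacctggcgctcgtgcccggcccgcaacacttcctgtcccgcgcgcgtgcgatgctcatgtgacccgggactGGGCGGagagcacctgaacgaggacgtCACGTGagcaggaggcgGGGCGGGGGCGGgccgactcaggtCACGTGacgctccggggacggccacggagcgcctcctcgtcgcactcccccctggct
Igfbp3: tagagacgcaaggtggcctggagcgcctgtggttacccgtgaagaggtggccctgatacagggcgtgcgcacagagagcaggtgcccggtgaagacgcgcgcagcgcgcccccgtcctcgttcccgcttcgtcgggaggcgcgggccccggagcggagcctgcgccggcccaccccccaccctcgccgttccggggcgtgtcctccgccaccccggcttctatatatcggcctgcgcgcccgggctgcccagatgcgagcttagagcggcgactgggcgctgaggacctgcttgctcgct
Igfbp5: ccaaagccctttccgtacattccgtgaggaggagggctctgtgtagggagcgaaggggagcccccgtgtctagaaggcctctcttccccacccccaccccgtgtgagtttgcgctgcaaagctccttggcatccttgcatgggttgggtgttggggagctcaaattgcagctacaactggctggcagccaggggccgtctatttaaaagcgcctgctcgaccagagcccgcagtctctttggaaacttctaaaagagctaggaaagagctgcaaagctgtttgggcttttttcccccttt

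Searches on both strands covered the TATA box, spelled TATAAA. They also covered the GC box, for which the letters GGGCGG were used, and the E-box with the letters CACGTG. No match overlapped another in these windows. The Igf2r window held 3 GC boxes and 2 E-boxes, while the windows of Igfbp3 and Igfbp5 held none of the 3 spellings searched. Other spellings of these motifs were not searched, so a window without a match may still hold a related site. GC boxes did not separate the genes by direction. Of the other genes called lower, the Igfbp7 window held 4, that of Igf1r 2 and that of Igf1 0. The window of Igfbp4, which had 1 cluster called higher, held 0 GC boxes and 1 TATA box. GC content was 70.7% for Igf2r, 71.7% for Igfbp3 and 56.3% for Igfbp5, against a median of 52.7% over all 32851 promoter windows. All 10 genes matched RefSeq, with 14 windows in total, of which 6 held a GC box, 2 a TATA box and 2 an E-box. Among all promoter windows, 35.7% held a GC box, 13.6% a TATA box and 7.15% an E-box. These matches describe letters only.

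Igf1, the ligand that acts mainly through IGF1R, was lower in SMNs. Its intensity was 99.3, 107 and 150 in SMN arrays 1 to 3, against 413, 558 and 384 in posterior horn arrays 1 to 3. Every SMN array was below every posterior horn array, and the groups averaged 119 ± 27.5 in SMNs and 452 ± 93.3 in posterior horn (SD, n = 3 each). Igf1 was thus 3.79-fold lower in SMNs (log2 fold change -1.92, SE 0.24, adjusted p = 0.00399). Igf2, the imprinted fetal growth factor, had 225, 261 and 190 in SMN arrays, against 303, 359 and 486 in posterior horn arrays. Although the groups did not overlap, Igf2 did not pass (log2 fold change -0.75, 95% confidence interval -1.31 to -0.18, adjusted p = 0.0605).

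The receptors differed in opposite directions. Igf2r had 765, 627 and 635 in SMN arrays, against 263, 187 and 244 in posterior horn arrays. All SMN values were above all posterior horn values, and Igf2r was 2.93-fold higher in SMNs (log2 fold change 1.55, SE 0.19, adjusted p = 0.0040). Igf1r had 1475, 1482 and 1520 in SMN arrays, against 2760, 2446 and 2546 in posterior horn arrays. The SMN arrays differed little among themselves and were all lower, giving a 1.73-fold lower level (log2 fold change -0.79, SE 0.14, adjusted p = 0.0109). This direction depended on the summary of the probesets: with the median of the exon-level probesets in each array, the log2 fold change of Igf1r was 0.23 (adjusted p = 0.385).

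Binding protein genes differed in both directions. Igfbp5, a binding protein that also attaches to extracellular matrix, had 46.2, 34.0 and 45.1 in SMN arrays, against 265, 277 and 364 in posterior horn arrays. The lowest posterior horn array was well above the highest SMN array, and Igfbp5 was 7.07-fold lower in SMNs (log2 fold change -2.82, SE 0.21, adjusted p = 0.000946). Its SMN values lay near the array median, so this size also depended on low values, and it was -2.45 with 16 added before the log2. Igfbp3, the main IGF carrier of blood, had 6.1, 16.4 and 19.1 in SMN arrays, against 125, 109 and 68.0 in posterior horn arrays. Its SMN values were low and spread more on the log2 scale, with SMN array 1 lowest, and they lay under the array median. Igfbp3 was lower in SMNs (log2 fold change -2.86, SE 0.45, adjusted p = 0.00801), but the size depended on the treatment of low values and was -1.96 with 16 added before the log2. Igfbp7, which binds IGFs weakly and is found in vessel basement membrane, had 426, 398 and 452 in SMN arrays, against 998, 761 and 889 in posterior horn arrays. Igfbp7 was 2.06-fold lower in SMNs with no overlap between groups (log2 fold change -1.05, SE 0.17, adjusted p = 0.00808).

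Igfbp4, a binding protein cut by the protease encoded by Pappa, could not be given a single direction. Cluster 6784063 had 175, 203 and 241 in SMN arrays, against 83.6, 109 and 82.1 in posterior horn arrays, and was 2.24-fold higher in SMNs (log2 fold change 1.16, SE 0.20, adjusted p = 0.0104). Cluster 6784062 had 191, 156 and 83.3 in SMN arrays, against 169, 193 and 151 in posterior horn arrays, and the groups overlapped (log2 fold change -0.33, 95% confidence interval -1.12 to 0.46, adjusted p = 0.498). Without SMN array 3 the log2 fold change of cluster 6784062 was 0.020, and the exon-level median of Igfbp4 gave -0.18.

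The other binding protein genes had SMN values above the posterior horn values and did not pass. Igfbp2, known for its abundance in cerebrospinal fluid, had 226, 201 and 237 in SMN arrays, against 179, 99.6 and 133 in posterior horn arrays. Its log2 fold change was 0.72 (95% confidence interval 0.14 to 1.31, adjusted p = 0.0730). Igfbp6, which prefers IGF2 over IGF1, had 159, 133 and 163 in SMN arrays, against 87.7, 108 and 121 in posterior horn arrays. Its log2 fold change was 0.52 (95% confidence interval 0.07 to 0.97, adjusted p = 0.0865). Igfbp2 and Igfbp5 are neighbours on chromosome 1, where their log2 fold changes were 0.72 and -2.82. Igfbp1, the neighbour of Igfbp3 on chromosome 11, did not pass (log2 fold change -0.06, adjusted p = 0.892).

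**Figure D2:**
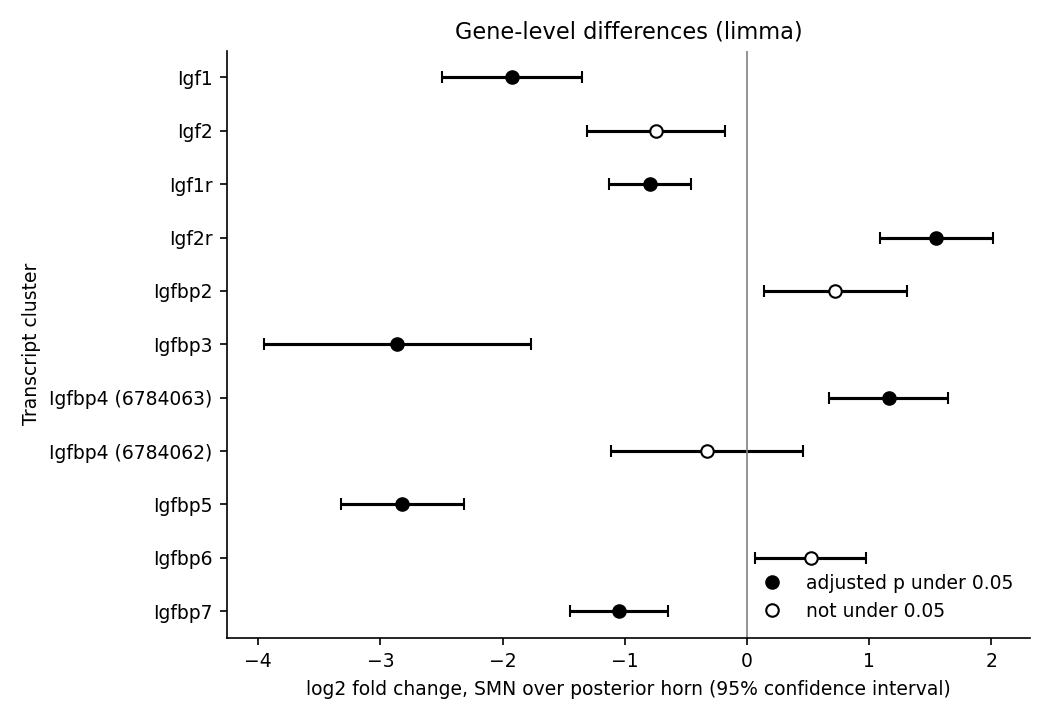
Log2 fold change of each transcript cluster (SMN over posterior horn, limma) with its 95% confidence interval. Filled points passed at an adjusted p under 0.05: Igf2r at 1.55 and Igfbp4 cluster 6784063 at 1.16 lie above 0, and Igf1, Igf1r, Igfbp3, Igfbp5 and Igfbp7 lie below 0.

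The exon-level table was used to see how far the probesets of a gene moved together. Of the 182 probesets, 6 passed limma over all 1195555 probesets, against 1.22% of all. The 2 that were higher in SMNs (0.57% of all were called higher) both belonged to Igf2r, and the 4 that were lower (0.654% of all) belonged to Igf1, Igfbp3 and Igfbp5. At an unadjusted p under 0.05 there were 65, and the share over all probesets at that threshold was not counted. The count of 6 depended on single arrays: it was 1, 0 and 1 without SMN arrays 1, 2 and 3, and 2, 1 and 5 without posterior horn arrays 1, 2 and 3. No probeset of Igf2, Igf1r, Igfbp2, Igfbp4, Igfbp6 or Igfbp7 passed.

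Igf2r had the most probesets of the family. The log2 fold change was positive in 48 of its 52 probesets, with a median of 0.91 and a range of -0.45 to 2.33. All SMN arrays were above all posterior horn arrays in 28 of the 52, and the share over all probesets was not counted. In Igf2r probeset 4318079, log2 values were 8.58, 8.88 and 8.63 in SMN arrays, against 6.61, 6.77 and 6.90 in posterior horn arrays (log2 fold change 1.94, adjusted p = 0.0124). The other probeset that passed, Igf2r 4670390, lay just inside the threshold with a log2 fold change of 2.33 (adjusted p = 0.049996).

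Igfbp5 and Igfbp3 combined probesets with large falls and probesets near 0. In Igfbp5 probeset 4320154, log2 values were 6.35, 5.86 and 6.16 in SMN arrays, against 8.86, 9.51 and 10.20 in posterior horn arrays (log2 fold change -3.40, adjusted p = 0.0124). The second Igfbp5 probeset that passed, 5201461, was lower by the same test (log2 fold change -2.30, adjusted p = 0.0265). Over the 13 probesets of Igfbp5 the range was -3.40 to 0.22. In Igfbp3 probeset 5459728, log2 values were 2.58, 3.56 and 3.92 in SMN arrays, against 7.11, 6.60 and 5.93 in posterior horn arrays (log2 fold change -3.19, adjusted p = 0.0261). Of the 11 Igfbp3 probesets, 7 had a negative and 4 a positive log2 fold change, the highest being 0.45. In Igf1 probeset 5261482, log2 values were 7.55, 7.24 and 7.65 in SMN arrays, against 9.07, 9.57 and 8.81 in posterior horn arrays (log2 fold change -1.67, adjusted p = 0.0407). Of the 16 Igf1 probesets, 14 had a negative log2 fold change.

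The probesets of Igf1r were split. Its 32 probesets included 16 with a positive and 16 with a negative log2 fold change, and their median was 0.00. Only at the bright end did the split go with signal, where the brightest probesets were 4657144, 4775525, 5002968 and 5244706. Their log2 fold changes were all negative (-0.27, -0.84, -0.51 and -0.65), and every probeset with a positive one was dimmer. Among the dimmer probesets both signs occurred, and the dimmest, 5512887, had -0.16. Igf1r probeset 4775525 had 11.08, 10.94 and 10.98 in SMN arrays, against 11.84, 11.80 and 11.88 in posterior horn arrays (log2 fold change -0.84). Igf1r probeset 4671931 had 6.95, 6.99 and 7.13 in SMN arrays, against 6.46, 6.12 and 6.15 in posterior horn arrays (log2 fold change 0.78). Neither passed over all probesets (adjusted p = 0.104 and 0.155). Igfbp6 had 8 positive values among 8 probesets, and Igfbp7 had 8 negative values among 9.

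**Figure D3:**
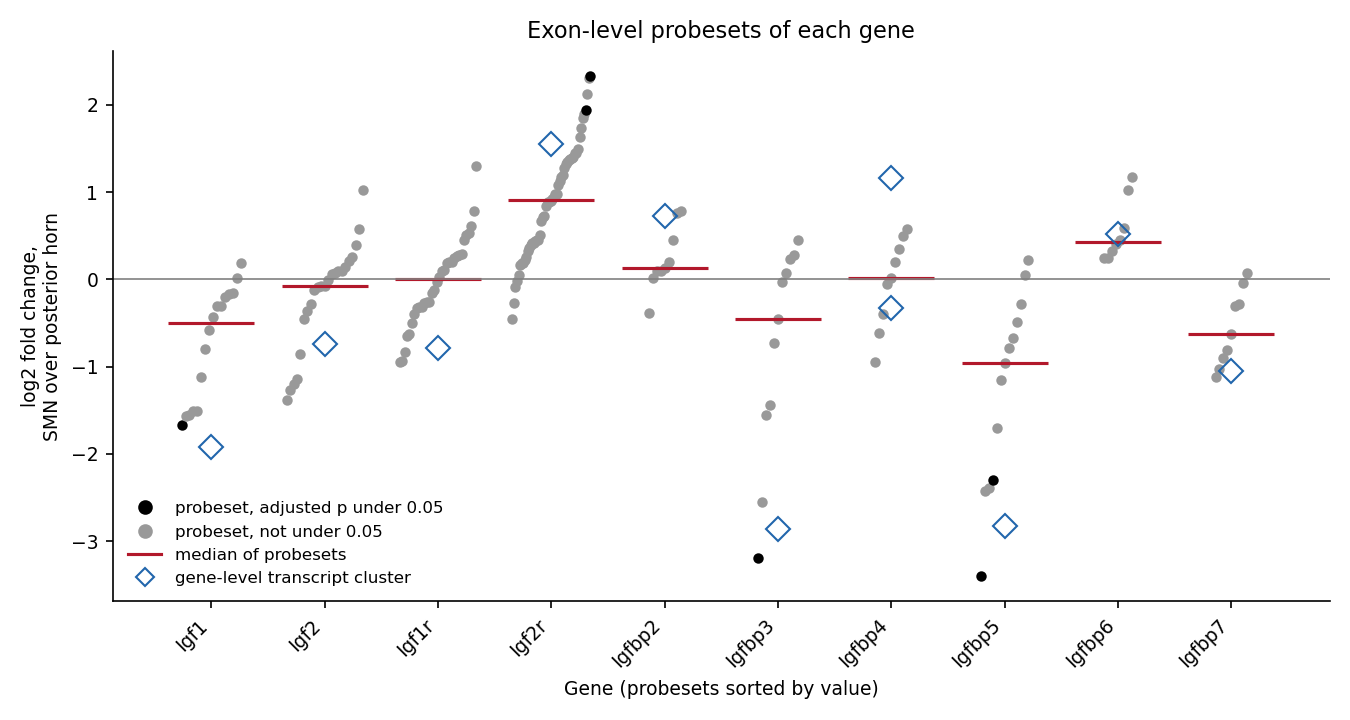
Log2 fold change (SMN over posterior horn) of every exon-level probeset of each gene, sorted within the gene, with the median of the probesets (bar) and the gene-level transcript clusters (diamond). The probesets of Igf2r lie mostly above 0, those of Igf1r fall on both sides of 0, and the lowest probesets of Igfbp3 and Igfbp5 reach -3.19 and -3.40.

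Differences among the probesets of a gene were tested with diffSplice, which asks whether their log2 fold changes are equal. The test cannot tell different transcript forms of a gene from probesets that respond weakly. The test passed for 6 of the 10 genes, against 21.4% of 21412 genes. The adjusted p was 1.1e-07 for Igfbp3, 0.000729 for Igfbp5, 0.00115 for Igf2r, 0.0121 for Igf2, 0.0332 for Igf1r and 0.0437 for Igfbp7. Igf1, Igfbp2, Igfbp4 and Igfbp6 did not pass. Igfbp3 and Igfbp5 also passed when any 1 array was left out, whereas the other 4 each lost the call without at least 1 array. Igf2r, for example, did not pass without SMN array 1 (adjusted p = 0.224) or SMN array 2 (0.0850). When each gene was summarized as the median of its probesets in each array, Igf2r (0.63), Igfbp3 (-0.62), Igfbp5 (-1.24) and Igfbp7 (-0.82) passed with smaller log2 fold changes than at the gene level, and Igf1 did not pass (-0.87, adjusted p = 0.0653).

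The genes around the family were then read by function, with 1 transcript cluster per gene. Of 79 measured genes in 5 lists, 37 passed, against 29.1% of all symbols (15.4% were called higher and 13.7% lower). Without SMN arrays 1, 2 and 3 in turn, 18, 18 and 19 passed, and with all rows of the table tested 2 passed. Among genes that set IGF availability, 4 of 13 were higher in SMNs and 3 lower, with a median log2 fold change of 0.08. Pappa encodes the metalloprotease that cleaves IGFBP4 and IGFBP5. Pappa had 2311, 2041 and 2150 in SMN arrays, against 111, 22.6 and 48.9 in posterior horn arrays, so that all SMN values were above all posterior horn values (adjusted p = 0.00218, log2 fold change 5.41). The log2 fold change of Pappa ran from 3.31 with exon-level medians to 5.98 without posterior horn array 1. A second Pappa cluster was also higher (adjusted p = 0.00151). The protease genes Htra1 (2.18-fold), Adamts1 (1.94-fold) and Adam28 (1.72-fold) were also higher. Stc1, encoding a stanniocalcin that inhibits the Pappa protease, was 4.53-fold lower (adjusted p = 0.00852). Its SMN values of 22.6, 37.1 and 60.1 lay around the array median, and with 16 added its log2 fold change was -1.80. Vtn, a matrix glycoprotein gene that is also among the mural markers, was 2.39-fold lower, and Cd93, an endothelial receptor gene, was 2.25-fold lower. Adamts1 lost the call without SMN array 1 or 2 and with exon-level medians (log2 fold change 0.23), and Cd93 lost it without any 1 array other than posterior horn array 2. With exon-level medians Stc1 was at -0.86 on the log2 scale and still passed.

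Among 21 measured genes for insulin ligands, receptors and adaptors, 5 were higher, 3 lower and 13 did not pass, with a median log2 fold change of 0.10. Of all symbols, 15.4% were called higher and 13.7% lower, so the 3 lower genes lay near the share over all. Shc1 and Shc2, phosphotyrosine adaptors, were 3.49-fold and 2.86-fold higher in SMNs. Socs2, a feedback inhibitor of growth hormone signalling, was 2.01-fold higher. Grb10, an imprinted adaptor that restrains the insulin and IGF1 receptors, had 162, 181 and 193 in SMN arrays, against 433, 691 and 621 in posterior horn arrays, a 3.19-fold lower level (adjusted p = 0.00465). Shc3 (log2 fold change -0.81, adjusted p = 0.0457) and the Ras activator Sos2 (-0.72, 0.0478) passed narrowly, and each lost the call in 12 of 21 alternatives. Shc3 lost it without any 1 array, Sos2 without any 1 array other than posterior horn array 3, and Shc1 without any 1 SMN array. With exon-level medians Shc2 (0.43) and Socs2 (0.33) did not pass, and Grb10 (-1.02) did. Insr, the insulin receptor gene, did not pass (log2 fold change -0.54, adjusted p = 0.132), nor did the receptor substrates Irs1 (-0.82, 0.182) and Irs2 (0.50, 0.127).

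Downstream, 5 of 27 measured genes of PI3 kinase, Akt, mTOR and FoxO were higher, 6 lower and 16 did not pass, with a median of -0.18. The 5 higher genes lay near the share over all symbols, of which 15.4% were called higher and 13.7% lower. Foxo6 (2.21-fold), the mTOR-restraining Tsc2 (2.03-fold) and Pik3cb, a catalytic PI3 kinase subunit (1.82-fold), were higher in SMNs. Deptor, an mTOR inhibitor (2.37-fold), and the transcription factors Foxo4 (2.28-fold) and Foxo1 (2.23-fold) were lower. With exon-level medians the log2 fold changes of Foxo6 (0.13), Tsc2 (0.24), Foxo4 (-0.18) and Foxo1 (-0.22) were near 0 and did not pass. Pik3cb lost the call without SMN array 1 or 2, and Foxo1 without SMN array 1 or 2 or posterior horn array 2 or 3. Further clusters of these genes did not pass. For Tsc2 the log2 fold change was 0.002 (adjusted p = 0.996), and for Pik3cb 0.22 (0.746) and 1.66 (0.0502). For Foxo1 it was 0.68 (0.714), with all values under the array median.

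Genes of mannose 6-phosphate sorting, the route that IGF2R serves inside the cell, were higher in 6 of 11 measured cases and lower in 0, with a median log2 fold change of 0.68. The shares over all symbols were 15.4% higher and 13.7% lower. Nagpa, whose enzyme uncovers the mannose 6-phosphate tag, was 2.40-fold higher in SMNs. The sorting adaptor Gga2 was 2.04-fold higher and the retromer subunit Vps35 was 1.89-fold higher, while Gnptab, whose enzyme adds the tag, did not pass (log2 fold change -0.28, adjusted p = 0.515). Nagpa (0.34) and Gga2 (0.58) did not pass with exon-level medians. Nagpa also lost the call without SMN array 1 or 3 or posterior horn array 1 or 2, and Gga2 without any 1 array other than posterior horn array 2. Genes of the Igf2 locus and of Igf2 mRNA binding showed the opposite counts, with 0 of 7 higher and 5 lower and a median of -0.83. Igf2bp3, an RNA-binding protein gene, had 211, 201 and 205 in SMN arrays, against 648, 578 and 664 in posterior horn arrays, a 3.05-fold lower level (adjusted p = 0.00151), although its exon-level median gave a log2 fold change of 0.15. The imprinted transcription factor gene Plagl1 was 2.01-fold lower, although it did not pass with exon-level medians (-0.41), and H19, the imprinted RNA beside Igf2, was 1.78-fold lower. Zfp57, which maintains imprints, had 22.9, 66.8 and 20.6 in SMN arrays, against 123, 391 and 93.8 in posterior horn arrays. Posterior horn array 2 stood above the others, and Zfp57 passed narrowly (log2 fold change -2.35, adjusted p = 0.0470). The call was lost in 11 of 20 alternatives, including every leave-one-out fit except that without SMN array 2.

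**Figure D4:**
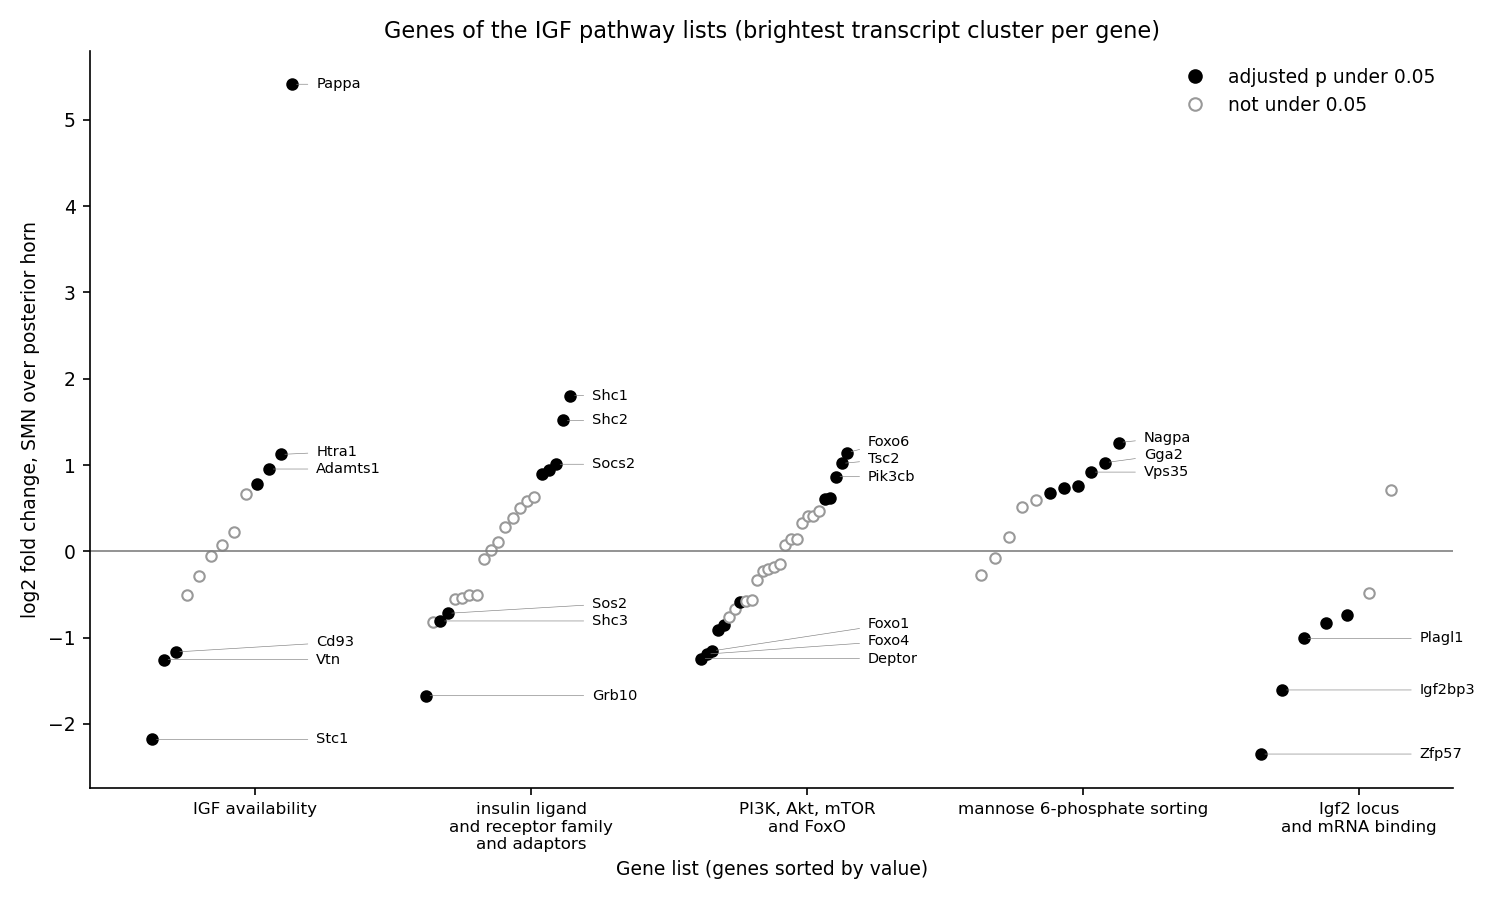
Log2 fold change (SMN over posterior horn) of the measured genes of each pathway list, sorted within the list, with filled points for an adjusted p under 0.05. Pappa stands at 5.41, no gene of mannose 6-phosphate sorting passed below 0, and no gene of the Igf2 locus list passed above 0.

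The genes whose profile over the 6 arrays was nearest to Igf2r, by root mean square distance of centred log2 values, were Anapc4 (0.0609), Triap1 (0.0767) and Fryl (0.0868). Those nearest to Igfbp3, which had the lowest log2 fold change when 1 was added before the log2, were Arhgdib (0.256), Dpy19l3 (0.275) and Sytl5 (0.313).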

How the data were processed

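RNA from laser-dissected SMNs and posterior horn was measured on 6 arrays, 3 per group, grouped by the sample labels. The gene-level values deposited by the authors are linear intensities, and the deposited exon-level values of the same arrays are on the log2 scale. Both were made with Affymetrix Expression Console (1.3.1.187, per the submitters' processing notes). How background was corrected, how probesets were summarized and which genome build was used is not given in the sources used here. Precision is limited by the number of arrays.

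Here log2(intensity + 1) was taken, with no further normalization. Rows were named from the array annotation: at the gene level 24343 of 238609 rows had 1 symbol, 1797 several and 212469 were unnamed here. The two-sided moderated test of limma (version 3.58.1, R 4.3.3, lmFit with eBayes) was fitted with Benjamini-Hochberg adjustment over the 24343 rows and over all 1195555 probesets, and diffSplice over the 319246 probesets with 1 symbol. A fold is that of the mean log2 values. Scripts were tested on simulated data.

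The family members and lists were chosen with earlier results of these data known. All rows of the members are named. From each pathway list up to 3 rises and 3 falls that passed were named, by size, with the 3 genes most like the member with the largest rise and the one with the largest fall, and Chat, Slc18a3 and Isl1. Adam28, Insr, Irs1, Irs2, Gnptab, H19 and Igfbp1 were named in addition, after their values were seen. Lists used the brightest row per symbol, and list genes with no such row in the table used were not analysed here. Promoter sequences are RefSeq's on GRCm38.p6.

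Alternatives were other values added before the log2, a floor of 16, median centring, quantile normalization, filters on dim rows, a trend with robust eBayes, the methods' t-test, unadjusted p-values, a replicate block, testing every row of the table, keeping 1 row per symbol, exon-level medians and leaving out each array. The count of marker genes under them was added after seeing the data. RNA-seq data of these cells were not used here.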

Additional observations from a re-analysis of the deposited data

How the results depend on the processing

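Over the 21 gene-level alternatives, 662 of 786 values of the named genes kept their direction and their side of the threshold, 104 lost the call, 16 gained it and 4 reversed. The reversals were Igf1r (0.23), Igfbp4 cluster 6784063 (-0.18) and Igf2bp3 (0.15) with exon-level medians, and Igfbp4 cluster 6784062, whose log2 fold change ran from -0.57 to 0.020 in the leave-one-out fits and reversed without SMN array 3. The 7 calls of the family were kept in each leave-one-out fit, where 7 to 9 clusters passed. With all rows of the table tested, 1 of them passed (Igfbp5), 746 of the 24343 clusters instead of 6420, 2 of the pathway genes instead of 37 and 20 of the marker genes instead of 44. With exon-level medians the counts were 4 for the family, 3748 for all genes and 15 for the pathway genes. Unadjusted, 9830 clusters passed.

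Without 1 array, 3284 to 5485 of all clusters, 18 to 27 pathway genes and 36 to 41 marker genes passed. Family probesets passing numbered 6, and 21 without the dimmest 50% of probesets, 28 with trend and robust eBayes, 23 over 1-symbol probesets only, 2 with the methods' t-test adjusted, 65 unadjusted and 0 to 5 without 1 array. Genes passing diffSplice numbered 2 to 6 without 1 array. For these exon-level counts, the shares over all probesets or genes were counted only in the main fits.

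Whether replicate numbers pair the arrays is not stated. The deviations of same-numbered arrays from their group means correlated at 0.0342, -0.00754 and 0.0212, and those of other pairs at -0.0446 to 0.0267. With 3 arrays per group, these values cannot show whether arrays share a mouse. With the replicate block the 7 family calls were kept, and 3798 of all clusters, 22 pathway genes and 0 family probesets passed.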
